A study of Homo sapiens with 18 samples.

Results

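A set of 10 genes of the bone morphogenetic protein (BMP) pathway and the ID family was followed in 3 Ewing sarcoma cell lines after knockdown of FLI1: the ligands BMP4 and BMP7, the secreted antagonist GREM1, the receptors BMPR1A, BMPR1B and BMPR2, and the target genes ID1, ID2, ID3 and ID4. They were chosen by symbol, and all 10 were found among the 58336 gene identifiers of the count tables. TC-32, TC-71 and A673 are established lines of Ewing sarcoma, a bone and soft tissue tumour driven by the fusion oncoprotein EWSR1::FLI1, which every group here carries. In each line, cells received 20 nM of either siNeg, a control siRNA, or siFLI1, an siRNA against FLI1 used to deplete the fusion, and polyadenylated RNA was sequenced. The 6 groups (TC-32 siNeg, TC-32 siFLI1, TC-71 siNeg, TC-71 siFLI1, A673 siNeg and A673 siFLI1) held 3 libraries each. The column names of TC-32 and TC-71 give 48 hours after transfection, and those of A673 give no time. The labels do not say whether libraries came from separate cultures, so p-values measure the spread between these libraries, which may be technical. A single siRNA sequence stood for each arm, so effects of the sequence and of FLI1 loss cannot be told apart.

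BMPs are secreted ligands of the TGF-beta superfamily. They bind type I receptors such as BMPR1A and BMPR1B together with type II receptors such as BMPR2, and the receptor complex phosphorylates SMAD1, SMAD5 and SMAD9, which enter the nucleus with SMAD4 and activate target genes, the ID genes among them. ID proteins have a helix-loop-helix domain but no DNA-binding region, and they hold E proteins such as TCF3 away from DNA. In Ewing sarcoma, ID2 has been described as a gene that EWSR1::FLI1 activates.

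Library totals were 24102487-33669271 counts for TC-32, 19685354-37234528 for TC-71 and 114564479-120993595 for A673. FLI1 went from 42.8-47.7 to 21.7-22.6 CPM (counts scaled to library size by TMM) in TC-32, from 47.9-52.8 to 17.2-19.9 CPM in TC-71 and, in A673, from 75.4-76.8 to 17.6-18.3 CPM. It thus fell in each line, to 48.9% (TC-32), 36.1% (TC-71) and 23.5% (A673) of its siNeg level, and the counts do not separate the fusion from the normal gene. The Ewing sarcoma markers were CD99, NKX2-2, NR0B1, STEAP1, PAPPA, LIPI and CAV1. Of these 7, 7 lay above 3 counts in TC-32 and A673 and 6 in TC-71, where CD99, a defining marker, was listed at 0. CD99 is a pseudoautosomal gene with 1 row for each copy, and the other tables list equal values in both rows (3786 to 5102 counts in TC-32, 26319 to 44832 in A673). The 0 in TC-71, from another counting program, therefore does not show that the transcript was absent, and its cause was not tested. Of 5 endothelial markers, 3 were tested in TC-32, where CDH5 (log2 2.28) and TEK (1.71) rose and KDR alone fell (log2 -4.05), and with it the summed level, from 31.1-32.8 to 4.94-6.09 CPM. In A673, 4 of 4 tested rose and the sum went from 5.03-5.93 to 28.9-32.4 CPM, while in TC-71 it stayed at or under 0.737 CPM. Among them, VWF was at or under 3 counts in TC-32 and TIE1 was at 0 in the siNeg libraries of each line. Summed haematopoietic markers went from 1.32-2.68 to 7.13-9.06 CPM in TC-32 and from 6.33-7.88 to 11.5-12.8 CPM in A673, with CD68, the 1 such gene tested, higher by log2 values of 2.08 and 0.84. Exons of other genes on the same strand covered 81.6% of CD68's exon bases, and the part of this in its values was not tested. Summed epithelial markers went from 2.23-2.45 to 5.25-6.90 CPM in TC-32 (CDH1 at 3 to 5 counts per siNeg and 98 to 152 per siFLI1 library). In TC-71 and A673 they stayed at or under 1.30 CPM, and haematopoietic markers in TC-71 at or under 0.377 CPM. The part of these markers in the results was not tested. In bulk RNA, fewer cells expressing a gene and less RNA per cell cannot be told apart.

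The fusion keeps the DNA-binding domain of FLI1, an ETS factor that reads GGAA, and the sequences next to the ID genes are shown because these 4 genes are the pathway's targets and the ID changes carry most of the results. The letters come from the RefSeq promoter table (GRCh38.p14) and run 5′ to 3′ on the strand of the gene up to its start, with GGAA or its reverse complement TTCC in capitals. For ID2, 202 of the 250 bases before the start are annotated as untranslated region of longer transcripts, so only the 30 bases around the first match are given.
ID1 (chr20:31605039-31605282, plus strand): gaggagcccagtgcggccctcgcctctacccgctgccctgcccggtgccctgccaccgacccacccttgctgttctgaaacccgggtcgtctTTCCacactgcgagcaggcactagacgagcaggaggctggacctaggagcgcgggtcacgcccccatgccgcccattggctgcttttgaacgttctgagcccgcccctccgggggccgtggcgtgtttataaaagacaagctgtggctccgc
ID2 (chr2:8681886-8681915, plus strand): tggctgcgaacgcGGAAgaaccaagcccac
ID3 (chr1:23559502-23559751, minus strand): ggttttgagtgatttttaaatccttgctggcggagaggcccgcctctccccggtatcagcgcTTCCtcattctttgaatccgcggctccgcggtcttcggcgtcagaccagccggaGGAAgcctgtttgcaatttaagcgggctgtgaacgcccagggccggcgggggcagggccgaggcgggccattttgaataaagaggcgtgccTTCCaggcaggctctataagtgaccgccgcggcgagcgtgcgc
ID4 (chr6:19837120-19837369, plus strand): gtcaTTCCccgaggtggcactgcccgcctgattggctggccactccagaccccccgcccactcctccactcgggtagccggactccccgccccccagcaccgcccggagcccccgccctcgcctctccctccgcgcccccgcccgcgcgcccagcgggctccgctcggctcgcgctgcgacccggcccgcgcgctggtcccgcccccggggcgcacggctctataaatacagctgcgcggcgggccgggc
Over the full 250 bases, counting both strands, GGAA occurred 1 time at ID1, 4 times at ID2, 3 times at ID3 and 1 time at ID4. Of 35116 promoter windows of that length, 92.7% held at least 1 GGAA, with a median of 3. The tandem repeat GGAAGGAA, in 3.06% of windows, and GGCGCC, in 16.4% and without overlap with GGAA, were in none of the 4 ID windows. BMP7 had no entry in the table. Among the windows of the other 9 members, GGAAGGAA occurred in 1, that before the second listed start of BMP4.

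Runs of at least 4 tandem GGAA repeats were also searched on the whole GRCh38 genome, since such runs are known binding places of EWSR1::FLI1. Distances are from the start of the gene. The run nearest to a member's start lay 7.76 kb upstream of BMPR2, between genes, and 5.37% of tested genes had a run as near to their start. For the other members the nearest run was 35.1 to 251 kb from the start, against a median of 87.6 kb over 20263 tested genes. The runs of BMPR1A (35.1 kb) and BMPR1B (204 kb) lay inside those genes, outside their exons. The run nearest to a member's start and the longest one are given with 20 flanking bases, read in the GGAA direction, with the run in capitals.
BMPR2, 12 repeats (chr2:202368519-202368566, minus strand): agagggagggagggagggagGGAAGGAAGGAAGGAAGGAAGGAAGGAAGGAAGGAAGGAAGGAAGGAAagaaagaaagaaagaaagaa
BMP4, 14 repeats, 58.5 kb downstream (chr14:53900209-53900264, plus strand): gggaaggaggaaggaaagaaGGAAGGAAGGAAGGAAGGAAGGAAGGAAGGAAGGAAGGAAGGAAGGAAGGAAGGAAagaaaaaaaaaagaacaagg
A match is a description of the letters and no evidence of binding in these cells.

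With siFLI1, ID2 fell and BMPR2 rose in all 3 lines, whereas the other members that were tested in all lines moved differently from line to line. The BMPR2 rise in A673 was small (log2 0.10), and its call was lost under several alternatives given with that gene. Each line was fitted with edgeR's quasi-likelihood test, with p-values adjusted by Benjamini-Hochberg over all genes tested and called under 0.05. In TC-32, 5 of 10 members rose, 4 fell and 1 did not pass, where 41.3% of all tested genes rose and 40.1% fell. In TC-71, 5 of the 7 tested members rose and 2 fell, against 36.8% and 35% of all genes. In A673, 3 of 10 rose, 5 fell and 2 did not pass, against 35.6% and 35.4%. The members' median log2 fold change was 0.26, 0.39 and -0.24 in the lines taken in that order, and that of all tested genes was 0.02, 0.02 and -0.01. With most genes called in each line, little is read from these counts, and the results are the size and direction for each gene. BMP4 passed the low-count filter in TC-32 and A673 through the siFLI1 libraries only. BMP4, BMP7 and GREM1 did not pass it in TC-71.

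**Figure D1:**
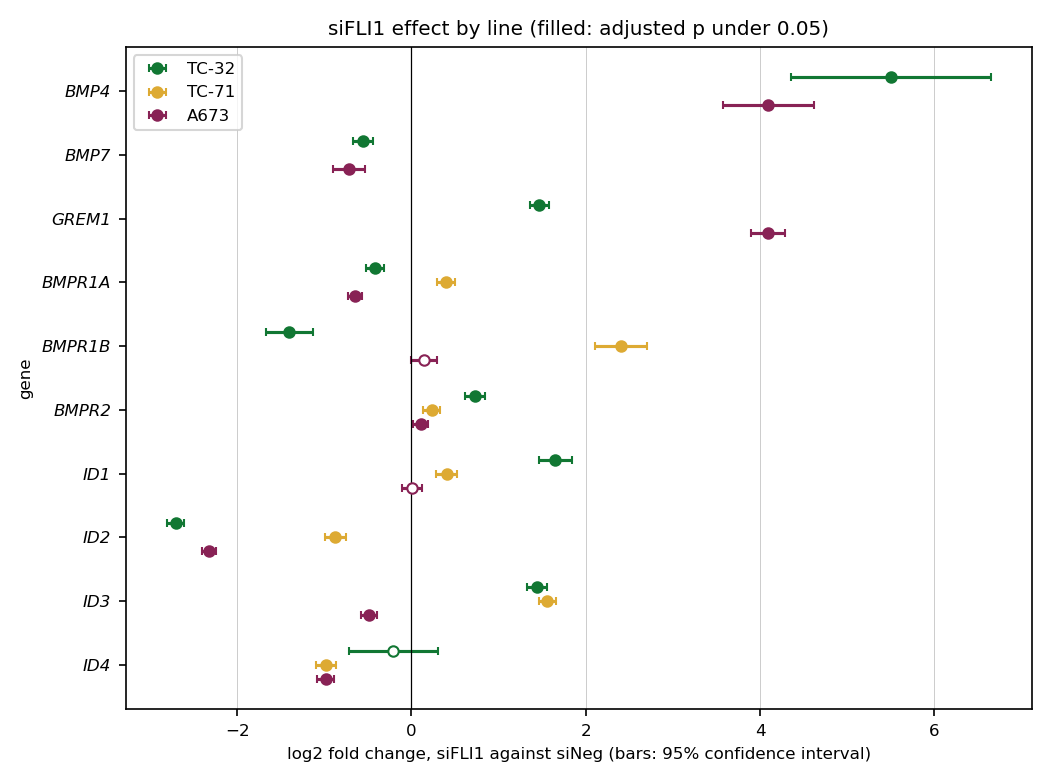
Log2 fold change of siFLI1 against siNeg (x axis) for each of the 10 genes (y axis) in TC-32, TC-71 and A673. Bars span the normal 95% interval from the standard error, filled points had an adjusted p under 0.05 and absent points were not tested. The BMP4 bar in TC-32 (4.36 to 6.65) rests on 2 siNeg counts. It is narrower than the interval from counting error alone, so it understates the uncertainty. ID2 lies left of 0 in the 3 lines, at -2.71, -0.88 and -2.32, and BMPR1B lies on both sides, at -1.40, 2.41 and 0.15.

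BMP4, a ligand of bone and limb patterning (chr14:53949736-53958761, GENCODE 44 on GRCh38), was near 0 in siNeg cells and higher in siFLI1 cells of TC-32 and A673. In TC-32 it stood at 0, 0 and 0.0842 CPM in siNeg and at 1.30, 1.57 and 1.39 CPM in siFLI1 libraries. In A673 the values were 0.0582, 0.0410 and 0.0590 CPM against 0.789, 1.01 and 0.945 CPM. The groups did not overlap in either line, and BMP4 remained a low transcript throughout. From summed counts of 2 against 128, the ratio in TC-32 was 53.1 (95% Clopper-Pearson interval 14.4 to 444, counting error only). In A673, where siNeg libraries held 5 to 7 counts each, the ratio from 19 against 318 summed counts was 17.4 (10.9 to 29.3). In TC-71 the siNeg libraries held 0 counts and the siFLI1 libraries 1 to 6, too few for a fold. Exons of genes on the opposite strand covered 16.3% of BMP4's exon bases. The kit keeps strand, but whether the counting used it is not given in the sources used here.

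BMP7, a ligand of kidney and bone development (chr20:57168753-57266641), fell by a moderate amount in the lines that expressed it. It moved from 49.2, 48.8 and 47.1 CPM to 31.8, 35.0 and 31.8 CPM in TC-32, or -0.55 ± 0.06 as a log2 fold change (SE, edgeR adjusted p = 8.45e-09). In A673 it moved from 5.78, 5.30 and 5.72 CPM to 3.03, 3.87 and 3.32 CPM, or -0.72 ± 0.09 as a log2 fold change (SE, edgeR adjusted p = 2.95e-06). Every siFLI1 library lay below every siNeg library of its line. In TC-71 all 6 libraries held 0 counts of BMP7, which allows a level of up to 0.152 CPM in the shallowest of them.

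GREM1 (chr15:32718004-32745106), a secreted protein that binds BMP2, BMP4 and BMP7 and keeps them from their receptors, rose in TC-32 and A673. In TC-32 it stood at 40.3, 42.7 and 37.3 CPM in siNeg and at 107, 115 and 111 CPM in siFLI1 libraries, 2.77-fold higher (log2 1.47 ± 0.06 SE, edgeR adjusted p = 1.13e-17). In A673 it moved from 0.565, 0.681 and 0.641 CPM to 11.2, 9.81 and 11.1 CPM, 17.04-fold higher (log2 4.09 ± 0.10 SE, edgeR adjusted p = 2.36e-15). The A673 siFLI1 level stayed below the siNeg level of TC-32, although the tables were quantified separately and levels across lines are descriptive. In TC-71 the siNeg libraries held 0 counts and the siFLI1 libraries 4, 0 and 1. The gene's effect thus differed in size between TC-32 and A673 by a log2 value of -2.59 (SE 0.13, edgeR interaction, adjusted p = 3.93e-18).

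**Figure D2:**
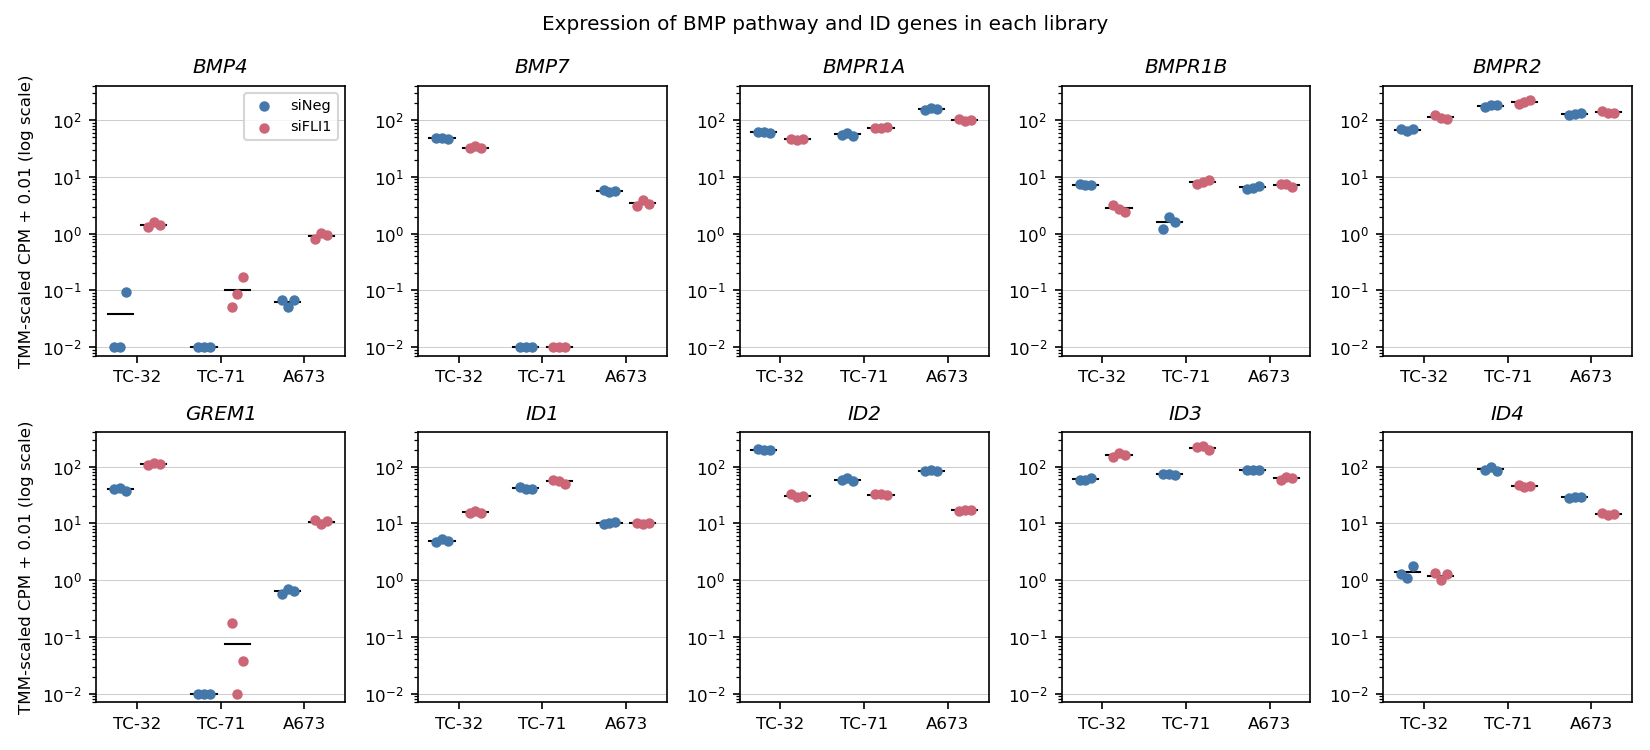
TMM-scaled CPM plus 0.01 on a log axis (y) for each gene and line (x), with 1 point per library in blue for siNeg and red for siFLI1 and a black bar at the group mean. In siNeg cells of A673, BMP4 sits near the bottom and GREM1 at 0.57 to 0.68 CPM, and each lies higher with siFLI1. BMP7 lies at the bottom in every TC-71 library.

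The type I receptor BMPR1A (chr10:86756596-86932825) fell in TC-32 and A673 and rose in TC-71. It moved from 60.9, 62.8 and 60.6 CPM to 47.3, 45.0 and 46.0 CPM in TC-32, and from 151, 161 and 158 CPM to 104, 95.8 and 99.1 CPM in A673. In TC-71 it moved from 55.3, 59.6 and 53.5 CPM to 71.9, 73.3 and 75.1 CPM. Groups did not overlap in any of the lines. The log2 fold changes were -0.42 ± 0.05 (TC-32), 0.39 ± 0.05 (TC-71) and -0.65 ± 0.04 (A673, SE, edgeR adjusted p = 1.46e-07, 1.52e-07 and 6.33e-10).

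BMPR1B (chr4:94757955-95158448), the type I receptor known for its part in cartilage and digit formation, had the widest spread of effects among the 7 members tested in the 3 lines. In TC-32 it fell from 7.58, 7.20 and 7.20 CPM to 3.14, 2.76 and 2.44 CPM, which left 37.9%. In TC-71 it rose from 1.19, 1.98 and 1.60 CPM to 7.61, 8.26 and 8.78 CPM, 5.30-fold higher. In A673 the values were 6.07, 6.46 and 6.98 CPM in siNeg and 7.38, 7.52 and 6.67 CPM in siFLI1 libraries, and the groups overlapped. The log2 fold changes were -1.40 ± 0.14 (TC-32), 2.41 ± 0.15 (TC-71) and 0.15 ± 0.07 (A673, SE, edgeR adjusted p = 1.02e-09, 1.81e-14 and 0.0932). The 95% interval in A673 ran from -0.00 to 0.29, and without siNeg replicate 3 or siFLI1 replicate 3 the value was 0.20, with adjusted p = 0.0479 and 0.0441.

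BMPR2 (chr2:202376327-202567751), the type II receptor that is mutated in heritable pulmonary arterial hypertension, rose in the 3 lines, by less in each of the other two than in TC-32. It moved from 70.8, 65.0 and 68.5 CPM to 125, 109 and 105 CPM in TC-32 and from 171, 182 and 184 CPM to 192, 212 and 225 CPM in TC-71. In A673 it moved from 124, 131 and 132 CPM to 146, 134 and 135 CPM, and the siFLI1 libraries lay above the siNeg libraries by a small margin. The log2 fold changes were 0.73 ± 0.06, 0.23 ± 0.05 and 0.10 ± 0.04 (SE, edgeR adjusted p = 7.04e-11, 0.000182 and 0.0379). The A673 call was lost when counts were scaled by library size alone (log2 0.0016), with the replicate number as a block (adjusted p = 0.101) and without siNeg replicate 1, siNeg replicate 2 or siFLI1 replicate 1, where the values were 0.080, 0.12 and 0.071.

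ID2 (chr2:8678845-8684461), an inhibitor of differentiation expressed in neural crest and many tumours, fell in each line. In TC-32 it stood at 205, 196 and 199 CPM in siNeg and at 32.4, 29.6 and 30.01 CPM in siFLI1 libraries, which left 15.3%. In A673 it went from 84.5, 86.0 and 83.6 CPM to 16.8, 17.02 and 17.1 CPM, which left 20.03%. In TC-71 it went from 57.5, 64.0 and 54.8 CPM to 32.4, 32.4 and 31.1 CPM, which left 54.5%. The siFLI1 libraries lay far below the siNeg libraries in TC-32 and A673, and without overlap also in TC-71. The log2 fold changes were -2.71 ± 0.05, -2.32 ± 0.04 and -0.88 ± 0.06 in TC-32, A673 and TC-71 (SE, edgeR adjusted p = 1.11e-23, 5.19e-17 and 1.78e-13). Exons of genes on the opposite strand covered 6.55% of ID2's exon bases.

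ID3 (chr1:23557926-23559501), a regulator of lymphocyte and vessel development, rose in TC-32 and TC-71 and fell in A673. It went from 58.9, 57.2 and 63.8 CPM to 149.8, 175 and 163 CPM in TC-32 and from 74.2, 73.8 and 71.3 CPM to 220.2, 226.7 and 199 CPM in TC-71. In A673 it went from 88.9, 85.7 and 87.2 CPM to 57.9, 66.7 and 61.9 CPM. The groups were apart in each line, on opposite sides. The log2 fold changes were 1.44 ± 0.06, 1.56 ± 0.05 and -0.49 ± 0.05 (SE, edgeR adjusted p = 1.4e-16, 1e-21 and 1.36e-07).

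ID1 (chr20:31605283-31606515), a widely used readout of BMP signalling, rose in TC-32 and TC-71. It went from 4.61, 5.35 and 4.97 CPM to 15.1, 16.5 and 15.3 CPM in TC-32, 3.14-fold higher, and from 43.6, 40.1 and 40.4 CPM to 57.7, 56.7 and 50.5 CPM in TC-71, 1.32-fold higher. In A673 the libraries overlapped, at 9.67, 10.1 and 10.5 CPM in siNeg and 10.3, 9.84 and 10.4 CPM in siFLI1. The log2 fold changes were 1.65 ± 0.10, 0.41 ± 0.06 and 0.01 ± 0.06 (SE, edgeR adjusted p = 8.71e-14, 8.45e-07 and 0.872), and the 95% interval in A673 ran from -0.10 to 0.13.

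ID4 (chr6:19837370-19842197), an inhibitor of differentiation known from the developing brain and breast, fell in TC-71 and A673. It went from 86.8, 97.8 and 85.04 CPM to 47.8, 43.3 and 45.2 CPM in TC-71 and from 28.4, 29.6 and 29.2 CPM to 15.3, 13.9 and 14.8 CPM in A673. These were log2 fold changes of -0.98 ± 0.06 and -0.99 ± 0.05 (SE, edgeR adjusted p = 2.56e-15 and 2.93e-11). In TC-32, where ID4 was a low transcript of 29 to 42 counts per library, the values were 1.26, 1.09 and 1.77 CPM in siNeg and 1.30, 1.01 and 1.25 CPM in siFLI1 libraries. Those groups overlapped, and the log2 fold change of -0.21 had a 95% interval from -0.72 to 0.30 (edgeR adjusted p = 0.461).

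Set per kilobase of exon (GENCODE 44 exon union), the 4 ID genes can be added up, and their composition shifted from ID2 towards ID3 in each line. In TC-32 the sum was 134.8 ± 3.10 CPM per kb in siNeg and 135.5 ± 8.17 in siFLI1 libraries (SD, n = 3, exact permutation p = 1, two-sided). Within that sum, the ID2 share went from 67.0% to 10.3% and the ID3 share from 29.7% to 80.1%. In TC-71 the sum went from 132.2 ± 4.58 to 214.7 ± 12.9 CPM per kb (SD, n = 3, exact permutation p = 0.1), and in A673 from 112.3 ± 0.438 to 61.3 ± 2.58 (SD, n = 3, exact permutation p = 0.1). With 3 libraries against 3, 0.1 is the smallest p that an exact test can give, so these sums cannot pass 0.05, although their groups do not overlap.

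The leading ID transcript changed identity in TC-32 alone of the 3 lines, from ID2 to ID3, and was ID3 in both arms of TC-71 and A673. The ID2 share dropped to 6.74% from 20.1% in TC-71 and to 12.5% from 34.1% in A673. The ID3 share reached 67.0% from 37.0% in TC-71 and 67.8% from 51.9% in A673, where ID3 itself fell but by less than ID2. ID1 held 3.00% and then 9.37% of the sum in TC-32, 25.4% and 20.8% in TC-71, and 7.29% and 13.5% in A673. ID4 went from 17.6% to 5.48% in TC-71, and it was 0.262% and 0.228% in TC-32 and 6.69% and 6.21% in A673. For the shares named here the groups did not overlap (exact permutation p = 0.1, n = 3), other than ID4 in TC-32 (exact p = 0.5) and in A673 (exact p = 0.3).

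**Figure D3:**
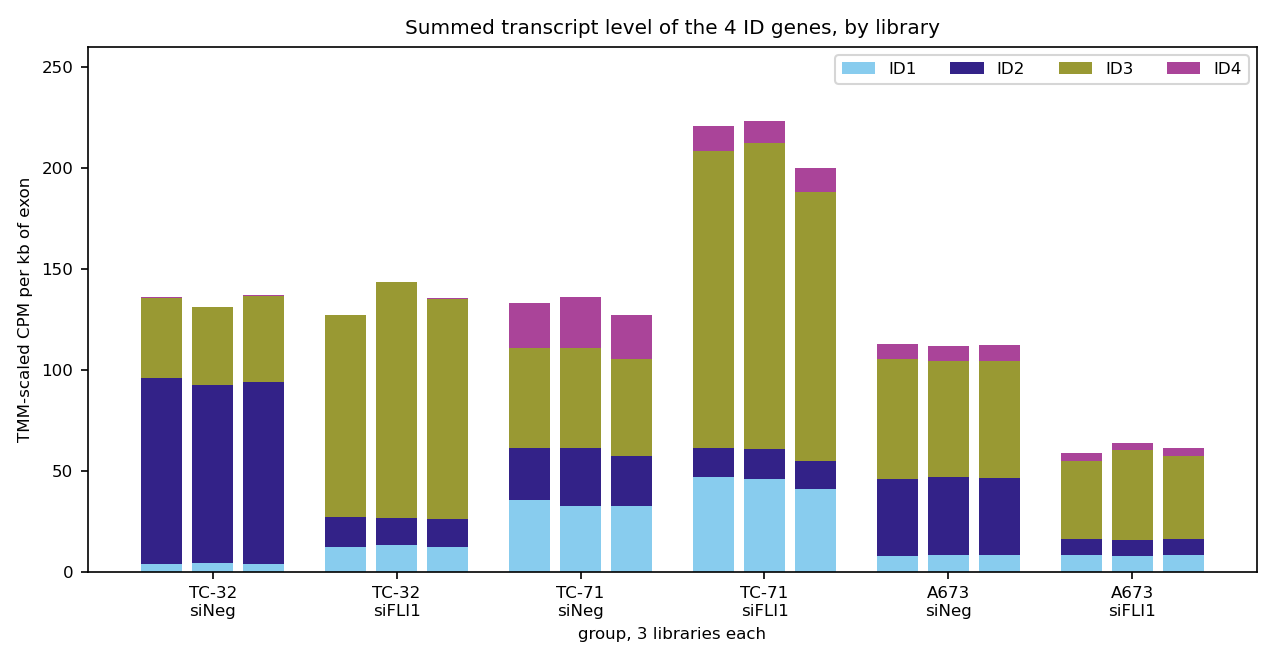
Stacked bars of TMM-scaled CPM per kb of exon (y axis) for ID1, ID2, ID3 and ID4, with 1 bar per library and 3 bars per group (x axis). The TC-32 bars keep their height near 135 while the ID2 part shrinks and the ID3 part grows, the TC-71 bars grow and the A673 bars shrink.

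Ranked by level per kb, ID3 or ID2 led the 10 members in each of the 6 groups, and BMP4, BMP7 or GREM1 stood at the bottom in 5 of them, with ID4 last in TC-32 siFLI1 cells. In TC-32 siNeg cells ID2 led at 90.3 CPM per kb, followed by ID3 at 40.1, BMP7 at 8.91 and BMPR1A at 6.10. In TC-32 siFLI1 cells ID3 led at 108.7, followed by ID2 at 13.8, ID1 at 12.7 and BMPR2 at 9.06. BMP4 at 0.459 and BMPR1B at 0.424 CPM per kb overlapped there. In TC-71 siNeg cells ID2 at 26.6 and ID4 at 23.2 CPM per kb overlapped, and in A673 siNeg cells BMP7 at 1.03 and BMPR1B at 0.991 did. In A673 siFLI1 cells GREM1 at 0.726 and BMP7 at 0.628 CPM per kb overlapped. The other neighbours in these orders did not overlap, apart from genes at or near 0 in TC-71. The exon union of GREM1 spans 14784 bases, which lowers its level per kb.

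Whether a gene's response differed between lines was tested as an interaction in 1 edgeR model of the 18 libraries. Between TC-32 and A673, 8 of 10 members differed, against 62.1% of 19610 tested genes. Between TC-32 and TC-71, 6 of 7 differed, against 53.6%, and between A673 and TC-71, 5 of 7, against 51.6%. Members were counted only where tested within both lines, whereas the shares cover all genes of the model. The sets are thus unlike, and nothing is read from these counts. BMPR1B had a difference of -3.82 ± 0.19 (SE) in log2 fold change between TC-32 and TC-71 (edgeR adjusted p = 4.36e-18), with a fall in TC-32 and a rise in TC-71. ID3 differed by 1.95 ± 0.08 between TC-32 and A673 and by -2.08 ± 0.08 between A673 and TC-71 (SE, edgeR adjusted p = 3.68e-21 and 1.21e-21), while between TC-32 and TC-71 the difference of -0.13 ± 0.08 did not pass (edgeR adjusted p = 0.19). The fall of ID2 was larger in TC-32 and A673 than in TC-71, by log2 values of -1.84 and -1.48 (edgeR adjusted p = 9.24e-21 and 1.57e-18). The ID4 difference between A673 and TC-71 was -0.04 ± 0.09 and did not pass (SE, edgeR adjusted p = 0.777). The depletion of FLI1 was deepest in A673 and shallowest in TC-32, A673 was sequenced several times deeper, and TC-71 was counted with another program. The time after transfection was 48 hours in TC-32 and TC-71 and is not given for A673. The part of these in the differences was not tested.

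Of 57 further pathway genes, 47, 45 and 46 were tested in the 3 lines (TC-32, TC-71, A673). In TC-32, 25 rose and 16 fell (all genes 41.3% and 40.1%), in TC-71, 25 and 13 (all genes 36.8% and 35%), and in A673, 21 and 20 (all genes 35.6% and 35.4%). Their median log2 fold changes were 0.29, 0.26 and 0.03. Of the 40 that were tested in each line, 12 rose and 7 fell in all 3, where 18.9% and 19% of 14233 genes did. Among the 57, GDF5 (3 lines), BMP5, CHRD, BMPER and SOST (TC-32), GDF7 (TC-32, TC-71), FST (TC-71, A673), BMP8A and BMP8B (A673) passed the low-count filter through the siFLI1 libraries only. HJV (TC-71, A673) passed it through the siNeg libraries only. These had to differ to be tested, so nothing is read from the counts or the medians.

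Among the other BMP-class ligands, 4 of 7 tested genes rose and 2 fell in TC-32 (all genes 41.3% and 40.1%). In TC-71, 3 of 7 rose and 4 fell (all genes 36.8% and 35%). In A673, 4 of 6 rose and 2 fell (all genes 35.6% and 35.4%). BMP5, GDF5 and GDF7 in TC-32, GDF5 and GDF7 in TC-71, and GDF5, BMP8A and BMP8B in A673 entered through their siFLI1 libraries only. Nothing is read from these counts. GDF6, a ligand of joint and eye development, was the leading ligand per kb in each group, at 53.9, 18.3 and 30.03 CPM per kb in siNeg cells of the 3 lines in that order. It fell in the 3 lines, by log2 values of -0.67 ± 0.04, -0.65 ± 0.06 and -1.497 ± 0.04 (SE, edgeR adjusted p = 4.09e-13, 2.2e-11 and 1.48e-14). The summed level of 14 ligands, BMP4 and BMP7 included, in CPM per kb went from 65.2 to 44.8 (TC-32), 29.4 to 19.03 (TC-71) and 32.2 to 18.3 (A673). GDF6 made up 82.6%, 62.3% and 93.3% of this sum in siNeg cells and 75.4%, 61.4% and 58.1% in siFLI1 cells. The sums thus mostly describe GDF6, and no fall of the other ligands is read from them. BMP5 rose in the 3 lines, although its siNeg libraries held only 0 to 4 counts each in TC-32 and 5 to 9 in TC-71. In A673 it went from 2.68 ± 0.174 to 23.0 ± 0.440 CPM (SD, n = 3), a log2 fold change of 3.10.

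GDF5, a ligand of joint formation, held 3, 3 and 1 summed counts in the siNeg arms of the lines, in the same order, and 515, 47 and 644 in the siFLI1 libraries. The ratios of 143 (95% Clopper-Pearson interval 48.5 to 694), 13.5 (4.34 to 67.7) and 669 (120 to 2.65e+04) cover counting error only, and exons on the opposite strand covered 35.4% of its exon bases. GDF7 went from 1 to 93 summed counts in TC-32 and from 15 to 71 in TC-71, a ratio of 4.07 there (2.31 to 7.66). BMP8A went from 6 to 82 summed counts in A673, a ratio of 14.2 (6.25 to 39.8). BMP2 fell in TC-32 and TC-71, by log2 values of -0.93 and -1.18 (edgeR adjusted p = 4.95e-06 and 4.12e-11), and was under the filter in A673. It lies outside the naming rule and was added after its values were seen.

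Of the other receptors and co-receptors, 5 of 7 rose and 2 fell in TC-32 (all genes 41.3% and 40.1%), 4 of 7 rose and 3 fell in TC-71 (all genes 36.8% and 35%), and 3 of 8 rose and 5 fell in A673 (all genes 35.6% and 35.4%). ACVR1, a type I receptor that is mutated in fibrodysplasia ossificans progressiva, rose in TC-32 (12.1 ± 0.185 to 29.6 ± 1.35 CPM), TC-71 (23.0 ± 0.840 to 70.4 ± 1.72 CPM) and A673 (21.9 ± 1.11 to 43.4 ± 1.06 CPM; SD, n = 3). ACVR2B, a type II receptor, fell by log2 values of -1.65, -0.57 and -1.32. ENG, the co-receptor endoglin, rose by 0.82, 0.58 and 0.92 on the log2 scale. ACVRL1, an endothelial type I receptor, rose in TC-32 (log2 2.13), where it held only 7 to 14 counts per siNeg library. It fell in A673 (log2 -1.09), where it held 11 to 32 counts per library. Beside them, the endothelial markers CDH5 and TEK rose in TC-32 and KDR fell, the 4 tested in A673 rose, and their part in these values was not tested. HJV, the iron-regulating co-receptor hemojuvelin, held 65 summed counts in siNeg and 8 in siFLI1 libraries of TC-71, a ratio of 0.106 (0.0439 to 0.221). In A673 it held 69 and 5, a ratio of 0.0753 (0.0237 to 0.184). In both lines HJV was tested through its siNeg libraries only, so nothing is read from its place among the genes that fell.

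Of the BMP antagonists, 8 of 11 rose and 2 fell in TC-32 (all genes 41.3% and 40.1%), 7 of 10 rose and 0 fell in TC-71 (all genes 36.8% and 35%), and 8 of 11 rose and 2 fell in A673 (all genes 35.6% and 35.4%). Their medians were 1.12, 0.62 and 0.60 on the log2 scale. CHRD, BMPER and SOST in TC-32, and FST in TC-71 and A673, entered through their siFLI1 libraries only. For that reason nothing is read from these counts and medians. With GREM1, the summed level of 16 antagonists in CPM per kb went from 54.1 ± 0.599 to 97.5 ± 4.90 (TC-32), 23.7 ± 0.211 to 94.2 ± 3.79 (TC-71) and 61.2 ± 0.926 to 72.2 ± 1.07 (A673; SD, n = 3). Different genes carried these sums. BAMBI, a decoy receptor without a kinase domain, rose from 15.1 ± 1.51 to 92.8 ± 5.04 CPM in TC-32 (SD, log2 2.61), and by 0.69 and 0.34 in TC-71 and A673. FSTL3, a follistatin-like protein that binds activins and BMPs, rose from 16.1 ± 0.602 to 167 ± 8.54 CPM in TC-71 (SD, log2 3.37), and by 1.12 and 1.74 in TC-32 and A673. TWSG1, an extracellular modulator of BMPs and chordin, rose by 0.29, 0.82 and 0.78 in TC-32, TC-71 and A673.

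FST, the activin and BMP binder follistatin, went from 1 to 7 counts to 736 to 1186 counts per library in TC-71, or from 10 to 2725 summed counts, a ratio of 235 (95% Clopper-Pearson interval 127 to 490, counting error only). In A673 it went from 2 to 386 summed counts, a ratio of about 200 (55.1 to 1.66e+03). CER1, a Nodal and BMP antagonist of the early embryo, fell in TC-32 and A673, from 10.0 ± 0.521 to 0.210 ± 0.160 CPM and from 24.1 ± 0.373 to 0.265 ± 0.0693 CPM (SD, n = 3, log2 -5.60 and -6.50). In TC-71 its log2 fold change of -0.47 did not pass (edgeR adjusted p = 0.119). SOST held 0 counts in the TC-32 siNeg libraries and 14 to 20 per siFLI1 library, at least 4.46-fold higher against 3 counts per library.

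**Figure D4:**
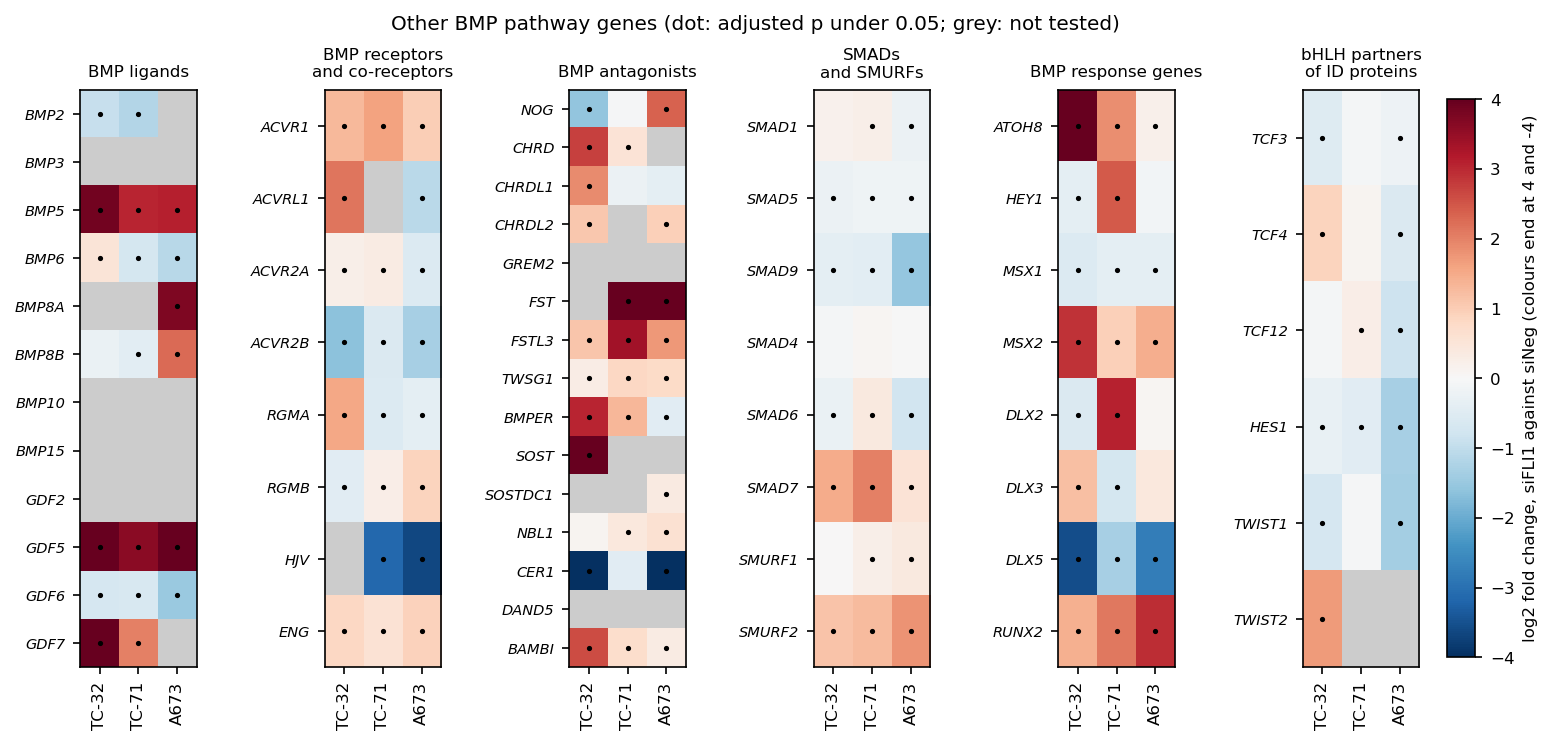
Log2 fold change of siFLI1 against siNeg for 57 further pathway genes in 6 lists (rows) and 3 lines (columns), from blue (lower) to red (higher), with colours ending at 4 and -4. Dots mark an adjusted p under 0.05 and grey cells were not tested. GDF5 and BMP5 are red, and GDF6, ACVR2B and DLX5 blue, in the 3 columns.

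Of the SMADs and SMURFs, 2 of 8 rose and 3 fell in TC-32 (all genes 41.3% and 40.1%), 5 of 8 rose and 2 fell in TC-71 (all genes 36.8% and 35%), and 3 of 8 rose and 4 fell in A673 (all genes 35.6% and 35.4%). The signal-carrying SMAD5 fell by small amounts, log2 -0.24, -0.16 and -0.17, and SMAD9 by -0.38, -0.41 and -1.56 in TC-32, TC-71 and A673. The inhibitory SMAD7 rose by 1.498, 2.03 and 0.53, and SMURF2, a ubiquitin ligase that targets SMADs and receptors, by 1.14, 1.26 and 1.80. SMAD6, the other inhibitory SMAD, fell in TC-32 and A673 (log2 -0.27 and -0.78) and rose in TC-71 (log2 0.40). SMAD6 lies outside the naming rule and was added after its values were seen.

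Among other genes known to respond to BMP, 4 of 8 rose and 4 fell in TC-32 (all genes 41.3% and 40.1%), 5 of 8 rose and 3 fell in TC-71 (all genes 36.8% and 35%), and 3 of 8 rose and 2 fell in A673 (all genes 35.6% and 35.4%). ATOH8, a basic helix-loop-helix factor induced by BMP, rose in the 3 lines: 2.05 ± 0.257 to 70.0 ± 4.12 CPM (TC-32), 9.82 ± 0.206 to 35.4 ± 1.35 CPM (TC-71) and 11.8 ± 0.241 to 13.5 ± 1.019 CPM (A673; SD, n = 3, log2 5.09, 1.85 and 0.20). MSX2 rose by 2.88, 0.96 and 1.45 and RUNX2, the bone-forming regulator, by 1.43, 2.10 and 2.97, whereas its partner in bone formation DLX5 fell by log2 values of -3.54, -1.32 and -2.75. MSX1 fell by small amounts, -0.55, -0.38 and -0.38. HEY1 and DLX2 rose in TC-71 by 2.45 and 3.08 and fell in TC-32, by log2 values of -0.40 and -0.59. In A673 their values of -0.09 and 0.08 did not pass (edgeR adjusted p = 0.503 and 0.21).

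Of the basic helix-loop-helix factors that ID proteins bind or act beside, 2 of 6 rose and 3 fell in TC-32 (all genes 41.3% and 40.1%), 1 of 5 rose and 1 fell in TC-71 (all genes 36.8% and 35%), and 0 of 5 rose and 5 fell in A673 (all genes 35.6% and 35.4%). HES1 fell in the 3 lines, by log2 values of -0.31, -0.45 and -1.31. In A673, TCF12 fell from 372 ± 6.70 to 208.2 ± 7.76 CPM (SD, n = 3, log2 -0.84) and TWIST1 by -1.37, and TCF4 by -0.58. TCF4 rose in TC-32 by 0.90, TWIST2 rose there by 1.69 and TCF12 rose in TC-71 by 0.26.

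For each member tested in the 3 lines, the genes with the most similar trio of log2 fold changes were sought among 11066 genes, by the root mean square difference over 3 lines. ID2 was nearest to STEAP1, one of the Ewing sarcoma markers above, with -3.02, -1.09 and -2.33 in TC-32, TC-71 and A673 (difference 0.220), and to JAKMIP2 (0.232). Of the tested markers of that list, 7 of 7 fell in TC-32, 4 of 6 in TC-71 and 6 of 7 in A673 (all genes 40.1%, 35% and 35.4%). The others rose: PAPPA in TC-71 and A673 (log2 0.44 and 1.16) and CAV1 in TC-71 (log2 0.155). ID3 was nearest to PCDHB11 (0.0661) and BTBD8 (0.155), and ID1 to FAM227A (0.0406) and CTSD (0.0805). ID4 was nearest to EFNA3 (0.0786) and PHF19 (0.120). Among the receptors, BMPR2 was nearest to BBS9 (0.0278) and C4orf3 (0.0306), BMPR1A to RERE (0.0529) and EXOC6B (0.0548), and BMPR1B to PDE4B (0.372) and TSPAN12 (0.397). With 3 points a gene, such likeness is a description. The values for ID2 and BMPR1B were the largest of the 7 members compared.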

How the data were processed

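Per the labels' protocols, RNA was extracted with a Maxwell kit and libraries were made with a stranded messenger RNA kit. The authors deposited expected counts per gene for A673 and TC-32, which the table names attribute to RSEM. The TC-71 table was deposited as whole counts and its name points to Subread. The submitters' processing notes name cutadapt 4.4, STAR 2.7.3, featureCounts, Subread 2.0.3, limma 3.38.3 and GRCh38, with no role per table. The annotation release and the strand setting are not given in the sources used here.

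Expected counts were rounded. The lines were fitted separately in edgeR 4.0.16 under R 4.3.3 (filterByExpr with a minimum count of 10, TMM factors, robust quasi-likelihood F-test), with Benjamini-Hochberg adjustment over all genes tested and a threshold of 0.05. Differences between lines were contrasts in 1 model of 18 libraries. Levels are TMM-scaled CPM, also per kb of GENCODE exon union. Of 58336 gene identifiers, 57754 matched that annotation. A floor of 3 counts per library stood for 0, and intervals of count ratios and floors cover counting error only, while 95% intervals of fold changes are normal intervals from the standard error. The fits were also run on simulated data in which few genes changed, all of them well counted. That run does not cover genes with few counts or data in which most genes change. Alternatives were RLE factors, library size alone, other filters, DESeq2 1.42.0, limma-voom (limma 3.58.1), unrounded values, a replicate block and leaving out each library.

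The members and lists were chosen with earlier results of these data known. Named were the members, FLI1, pathway genes called in the same direction in 3 lines, the 2 largest called changes of each list and line, and the 2 genes most like each member among genes whose mean log2 CPM reached 1. TC-32 and TC-71 columns were tied to their line by the table name. The line ES-5838 and siERG were not analysed here.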

Additional observations from a re-analysis of the deposited data

Results flagged for a closer look

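The siFLI1 effect differed between lines for the following genes by the edgeR interaction test, given as the difference in log2 fold change. Between TC-32 and A673 (first minus second) it was 0.26 for BMPR1A, -1.52 for BMPR1B, 0.65 for BMPR2, -2.59 for GREM1, 1.67 for ID1, -0.36 for ID2, 1.95 for ID3 and 0.80 for ID4. BMP4 (1.57, adjusted p = 0.156) and BMP7 (0.19, adjusted p = 0.141) did not pass in that pair. Between TC-32 and TC-71 it was -0.82 for BMPR1A, -3.82 for BMPR1B, 0.49 for BMPR2, 1.24 for ID1, -1.84 for ID2 and 0.76 for ID4. Between A673 and TC-71 it was -1.08 for BMPR1A, -2.29 for BMPR1B, -0.43 for ID1, -1.48 for ID2 and -2.08 for ID3, and BMPR2 (-0.16, adjusted p = 0.0984) did not pass. BMPR1A and BMPR1B had opposite signs in TC-32 and TC-71, and ID3 had opposite signs in A673 and both other lines.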

How the results depend on the processing

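The counts of members and wider pathway genes called, and of members differing between lines, stayed within 1.5 times their reported values in 224 comparisons with alternatives. The widest relative range was that of members higher in A673, reported as 3 and ranging from 2 to 4. Of the values for single genes, 833 kept their direction and side of the threshold, 5 reversed, 5 lost their call and 8 gained one. ID1 in A673, not called, went to -0.092 with library size alone and ranged from -0.016 (without siNeg replicate 1) to 0.042 when 1 library was left out. The ID4 difference between A673 and TC-71, also not called, went to 0.013 with RLE factors, 0.0025 with no filter and 0.038 with only the 12 libraries compared. With the replicate block, BMPR2 in A673 was 0.10 (adjusted p = 0.101), and no other member's call changed. Same-numbered libraries correlated between -0.205 and 0.0531 in their deviations from the group means, so the numbers were not taken to pair them. The BMP7 difference between TC-32 and A673 passed with library size alone (0.31) and without A673 siFLI1 replicate 2 (0.29). That of BMPR2 between A673 and TC-71 passed with library size alone (-0.22) and without TC-71 siFLI1 replicate 1 (-0.23) or A673 siFLI1 replicate 1 (-0.21). Without TC-32 siNeg replicate 3, which held the 2 BMP4 counts, the BMP4 difference was 5.4 (adjusted p = 0.0177). With 0 counts left in that arm, this value is not a measured fold. Scaling by library size alone moved the median of all genes in A673 from -0.01 to -0.11. BMP4 in TC-71 was tested only with no filter (log2 4.50, adjusted p = 0.0269), as was GREM1 (3.78, adjusted p = 0.116). DESeq2 was run within lines, not for differences between lines. Depth limits genes with few siNeg counts, such as BMP4, GDF5, GDF7, SOST and FST.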
